A study of Homo sapiens with 12 samples.

Results

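Early growth response and Krüppel-like factor genes were examined together with the immediate early response genes and MYC in the triple-negative breast cancer cell line BT549. The set was EGR1, EGR2, EGR3, IER2, IER3, IER5, KLF4, KLF6, KLF10 and MYC, and a gene was read from the transcript cluster (a set of probes summarised into 1 value per array) that carries its symbol and no other in the probe annotation. Of these 10 genes 9 were found among 17958 genes with such a symbol, and EGR2 was not analysed here. IER3 alone had several clusters among the members, and the brightest of them on average was taken.

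The arrays came from 4 groups of 3 biological replicates. Cells received the pcDNA3 plasmid with flag-tagged ERβ2 cDNA (ERβ2 plasmid) or the empty pcDNA3 vector (EV), both with RNA taken at 24 h, or siRNA targeting ERβ2 (ERβ2 siRNA) or control siRNA, both with RNA taken at 48 h. ERβ2 is an isoform of estrogen receptor beta, the product of ESR2. All transfections were transient, in 1 cell line grown with fetal bovine serum, and the plasmid and siRNA groups also differed in transfection reagent and in cell density at transfection. Effects are differences of mean log2 values, and they are given with their standard error (SE) and confidence interval (CI). A gene was said to rise or fall, or to pass, when its limma p, adjusted by Benjamini-Hochberg over all 17958 genes, was 0.1 or less. A gene was called when it also had an unadjusted p under 0.05 and a fold change of at least 1.5.

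On the arrays the targeted transcript gave no check of the siRNA labels. The study itself reports lower ERβ2 mRNA by qPCR after ERβ2 siRNA in BT549. It also reports more ERβ2 protein by Western blot after plasmid transfection. The ESR2 cluster had log2 values of 4.12, 3.99 and 3.8 with ERβ2 siRNA, against 4.03, 3.88 and 4.05 with control siRNA, and it does not separate the isoforms. It read 4.35, 4.72 and 4.37 with the ERβ2 plasmid, against 4.08, 3.93 and 4.01 with EV, a difference of 0.47 (SE 0.10, adjusted p = 0.449 from limma). The mesenchymal markers VIM, ZEB1, FN1 and SPARC had mean log2 values from 10.1 to 12.2, while ESR1, PGR, EPCAM and CDH1 lay between 3.47 and 3.95 and markers of blood, endothelial and liver cells between 3.21 and 3.92. Arrays of the same group correlated at 0.993 or more. In bulk RNA of this kind, fewer cells that express a gene and less of its RNA per cell cannot be told apart.

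Immediate early genes are transcribed soon after a cell meets a growth factor or a stress, without the need for new protein, and their mRNAs are short-lived. In many of them the ERK pathway acts on ETS factors that sit beside serum response factor (SRF) on a DNA element called the CArG box. EGR1 and EGR3 are zinc finger factors that bind GC-rich sites, the KLF proteins are zinc finger factors that bind GC and CACCC boxes, and MYC pairs with MAX to drive genes of growth and ribosome production. Such genes also answer to handling and to transfection itself, which is why the control arms are described here beside the ERβ2 arms.

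The sequence before the start site is shown for EGR1, which fell with ERβ2 siRNA, and for IER2, KLF4 and KLF6. These had higher means in that comparison, KLF4 without passing the test. The sequences of IER3, EGR3, KLF10 and MYC, which also rose, were not examined. The motifs are therefore not compared between genes that rose and genes that fell. Each run holds 250 bases that end at the base before the annotated start, from RefSeq on GRCh38.p14, read 5′ to 3′ on the gene's own strand. Capitals mark CArG boxes and the GC box GGGCGG on either strand (CCGCCC). The windows are chr5:138465229-138465478 for EGR1 (plus strand), chr19:13150161-13150410 for IER2 (plus strand), chr9:107489770-107490019 for KLF4 (minus strand) and chr10:3785210-3785459 for KLF6 (minus strand).
EGR1: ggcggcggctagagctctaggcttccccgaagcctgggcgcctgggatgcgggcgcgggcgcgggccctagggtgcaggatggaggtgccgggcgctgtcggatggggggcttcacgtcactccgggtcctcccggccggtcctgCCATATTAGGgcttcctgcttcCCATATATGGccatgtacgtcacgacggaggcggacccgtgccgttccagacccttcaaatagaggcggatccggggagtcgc
IER2: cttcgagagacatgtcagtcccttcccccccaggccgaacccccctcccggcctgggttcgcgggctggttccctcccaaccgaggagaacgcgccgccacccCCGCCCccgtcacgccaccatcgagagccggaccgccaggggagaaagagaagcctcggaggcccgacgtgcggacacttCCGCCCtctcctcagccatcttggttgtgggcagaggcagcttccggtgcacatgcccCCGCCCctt
KLF4: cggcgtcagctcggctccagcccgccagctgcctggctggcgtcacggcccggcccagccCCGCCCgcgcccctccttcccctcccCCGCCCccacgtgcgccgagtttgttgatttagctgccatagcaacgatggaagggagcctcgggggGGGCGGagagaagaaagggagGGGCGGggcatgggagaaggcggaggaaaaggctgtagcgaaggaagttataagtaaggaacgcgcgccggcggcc
KLF6: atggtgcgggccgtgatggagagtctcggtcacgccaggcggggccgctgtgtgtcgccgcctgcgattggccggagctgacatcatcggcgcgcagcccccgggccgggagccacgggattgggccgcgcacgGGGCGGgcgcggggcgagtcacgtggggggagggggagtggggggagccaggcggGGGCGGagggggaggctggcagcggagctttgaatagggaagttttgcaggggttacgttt
EGR1 held 2 CArG boxes, CCATATTAGG at chr5:138465374-138465383 and CCATATATGG at chr5:138465396-138465405, whose first bases lie 105 and 83 bases before the start. A CArG box was found in 1.16% of 35116 RefSeq windows of the same length, and more than 1 box in 0.0313%. The GC box was found in 42.6% of these windows, with 0 matches in EGR1, 3 in IER2, 4 in KLF4 and 2 in KLF6. The EGR site GCGNGGGCG, searched on both strands and able to overlap a GC box, had 1 match in each of EGR1, KLF4 and KLF6 and was found in 8.41% of the windows. IER5 held 0 matches to these 3 motifs.

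**Figure D1:**
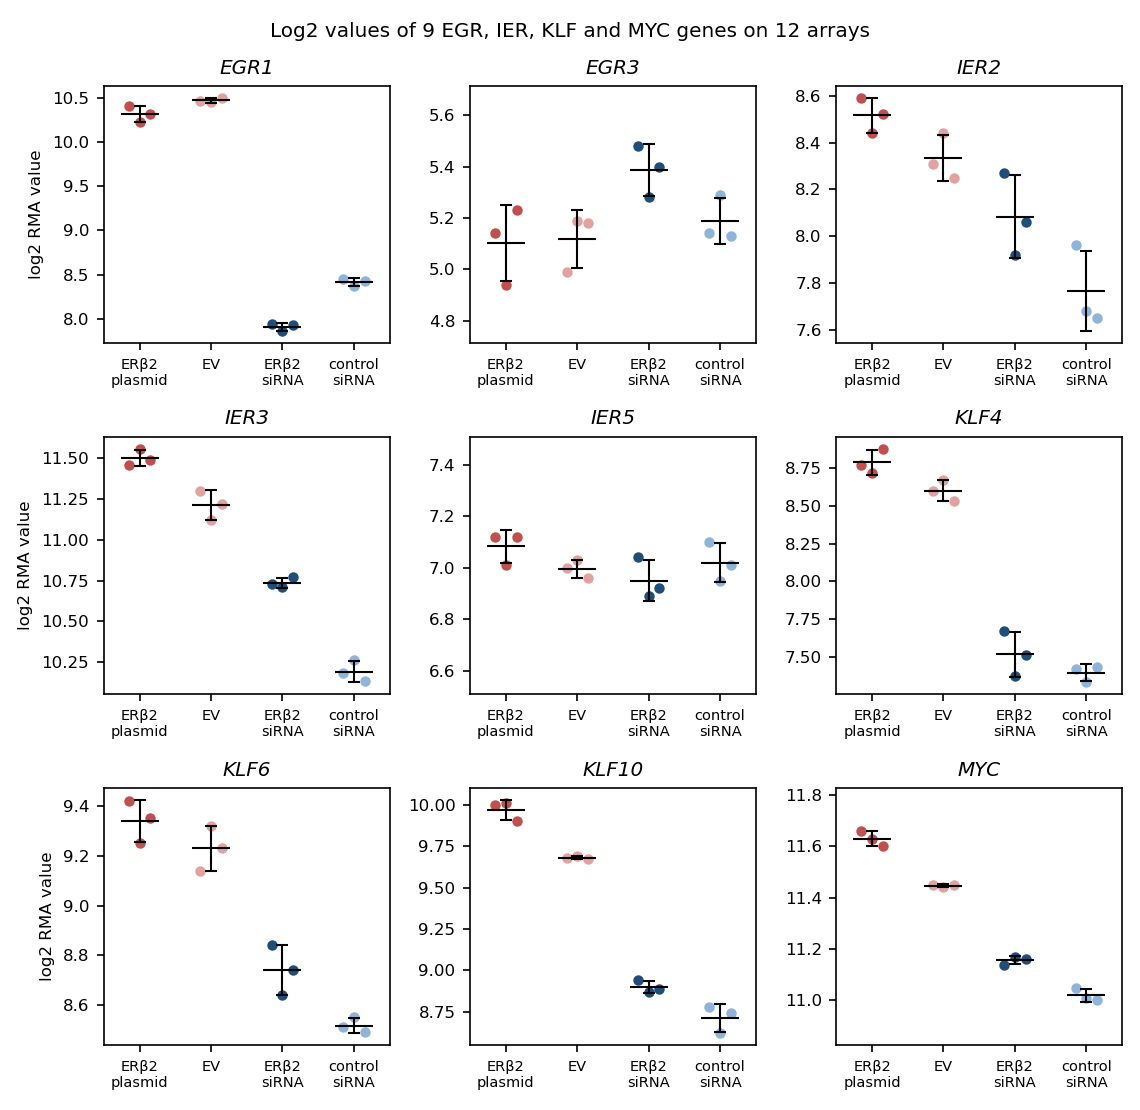
Log2 RMA value of 9 genes on each array (points), with the mean and SD of 3 arrays (black), for the ERβ2 plasmid, EV, ERβ2 siRNA and control siRNA groups. The vertical scale differs between panels. EGR1 lay between 10.23 and 10.5 on the plasmid arrays and between 7.86 and 8.45 on the siRNA arrays. For EGR3, IER2 and IER5 every pair of groups next to each other in the order of their means overlapped. KLF4 overlapped between ERβ2 siRNA and control siRNA, and KLF6 between the ERβ2 plasmid and EV.

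After ERβ2 knockdown EGR1 fell, and IER3, IER2, KLF6, EGR3, KLF10 and MYC rose. Of the 9 genes, 6 rose, where 18.3% of all genes rose, and 1 fell, where 17.5% of all genes fell. The median change of the 9 genes was 0.19 on the log2 scale, against −0.03 over all genes. The changes were modest, between −0.51 and 0.55, and 0 of the 9 genes reached the fold cut-off of the called genes (limma), where 3.25% of all genes were called higher and 1.26% lower. An unadjusted p under 0.05 was found for 7 of the 9, where 39.7% of all genes had one. Over all genes 51% of those that passed were higher, or 67.2% when arrays were centred on their median. By the methods' t-test 5 of the 9 genes (EGR1, IER3, KLF6, KLF10 and MYC) had an unadjusted p under 0.05, where 34.3% of all genes had one, and the same 5 passed after Benjamini-Hochberg adjustment, while 0 also reached the fold cut-off. The number that rose depended on single arrays. It was 1 without ERβ2 siRNA replicate 1, 2 without ERβ2 siRNA replicate 3, 3 without control siRNA replicate 2 and 3 without control siRNA replicate 3. It was 2 (IER3 and KLF6) when p-values were adjusted over all 33297 transcript clusters. EGR1 and IER3 passed in all 16 alternative settings, KLF6 in 15, KLF10 in 12, IER2 in 10, MYC in 9 and EGR3 in 7.

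With the ERβ2 plasmid no member passed the test against EV (limma, 0 of 9), and 2 of 17958 genes did (0.0111% higher and 0% lower). KLF10 and IER3 lay furthest from the EV arrays, each by 0.29 on the log2 scale. An unadjusted p under 0.05 was found for 6 of the 9 genes in limma, where 7.02% of all genes had one, and for 5 of them by the methods' t-test, where 7.17% had one. In 4 genes (IER3, KLF4, KLF10 and MYC) every ERβ2 plasmid array lay above every EV array, which held for 5.35% of all genes. In EGR1 every ERβ2 plasmid array lay below, which held for 6.67%. The median difference of the 9 genes was 0.18, against 0.00 over all genes. With an intensity trend and a robust prior 3 of the 9 genes passed (KLF10 with an adjusted p of 0.0273, IER3 with 0.0355 and MYC with 0.0616 from limma), and 44 of all genes did.

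Between EV at 24 h and control siRNA at 48 h the members lay far apart, by up to 2.05 on the log2 scale. Of the 9 genes, 7 were higher with EV (EGR1, KLF4, IER3, KLF10, KLF6, IER2 and MYC), where 19.2% of all genes were higher and 22.4% lower, and EGR3 and IER5 did not pass. In the same 7 genes every EV array lay above every control siRNA array, as in 21% of all genes. Of the 7 genes, 5 (EGR1, KLF4, IER3, KLF10 and KLF6) were also called, where 5.57% of all genes were called higher, and all 7 passed in all 16 alternative settings. The median difference of the 9 genes was 0.71, against −0.06 over all genes. This comparison shares its EV and control siRNA arrays with the other 2 comparisons. Nucleic acid, reagent, cell density and time after transfection differ here together and cannot be told apart. On the same arrays all 13 measured interferon-stimulated genes were higher with EV, by a median of 5.71 on the log2 scale, and their summed linear level ran from 28343 to 28810 with the ERβ2 plasmid, from 28500 to 31077 with EV, from 1297 to 1486 with ERβ2 siRNA and from 1565 to 1750 with control siRNA. Of 8 heat shock genes 1 was higher and 2 were lower with EV. The part of either response in the members' levels was not tested.

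**Figure D2:**
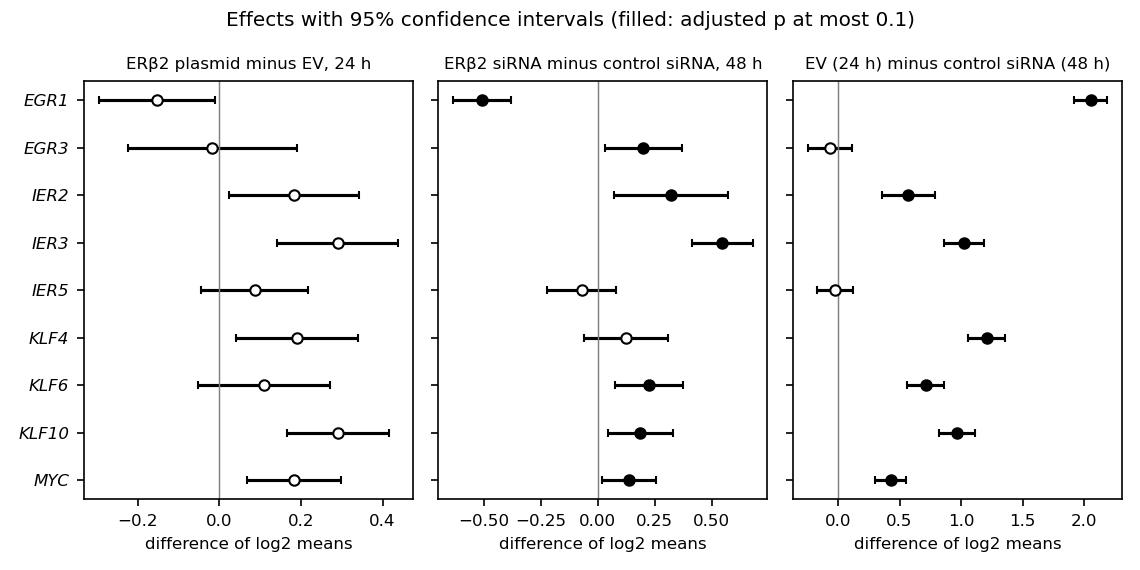
Difference of log2 means with its 95% CI for 9 genes, as ERβ2 plasmid minus EV (left), ERβ2 siRNA minus control siRNA (middle) and EV minus control siRNA (right), each on its own horizontal scale. Filled points passed the limma test, 0 on the left, 7 in the middle and 7 on the right. EGR1 lies below 0 in the left and middle panels and at 2.05 in the right panel.

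EGR1, the factor that gives the early growth response family its name, had the widest range of the 9 genes. Its log2 value (transcript cluster 8108370) was 7.94, 7.86 and 7.93 with ERβ2 siRNA, against 8.45, 8.37 and 8.43 with control siRNA. The arrays did not overlap, a separation that 21.3% of all genes showed in this direction. The change of −0.51 (SE 0.06, 95% CI −0.63 to −0.38, adjusted p = 0.000312 from limma) left EGR1 at 0.704 of the control level. It ran from −0.53 to −0.45 over the 16 alternative settings.

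On the plasmid arrays EGR1 read 10.41, 10.23 and 10.31 with ERβ2, against 10.46, 10.45 and 10.5 with EV. All 3 ERβ2 plasmid arrays lay below the EV arrays, but the difference of −0.15 (SE 0.06, 95% CI −0.30 to −0.01) did not pass (adjusted p = 0.675 from limma). EGR1 was the member that lay lower, without overlap, in both ERβ2 comparisons, which share no arrays. Taken singly, this held for 21.3% of all genes in the knockdown and 6.67% with the ERβ2 plasmid. The share of all genes with both was not counted. The knockdown effect was the more negative, by −0.35 (SE 0.08, adjusted p = 0.00665 from limma over all 12 arrays), and this difference passed in all 20 alternative settings. EV stood above control siRNA by 2.05 (SE 0.06, adjusted p = 5.21e-08), a 4.15-fold difference and the largest of the 9 genes. In order of their means the groups ran EV, ERβ2 plasmid, control siRNA and ERβ2 siRNA, and no neighbours overlapped.

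EGR3, a relative of EGR1 with a like zinc finger domain, did not follow it. EGR3 read low, with a mean log2 value of 5.20 over all arrays, where the array medians ran from 5.04 to 5.14. Its log2 value (cluster 8149720) was 5.48, 5.28 and 5.4 with ERβ2 siRNA, against 5.14, 5.29 and 5.13 with control siRNA. The highest control array lay just above the lowest ERβ2 siRNA array. The rise of 0.20 (SE 0.07, adjusted p = 0.0771 from limma) was lost in 9 of 16 settings, by the methods' t-test (adjusted p = 0.168) among them. After plasmid transfection it read 5.14, 4.94 and 5.23 with ERβ2, against 4.99, 5.19 and 5.18 with EV, and the difference of −0.02 was within the spread (SE 0.09, adjusted p = 0.986). Every pair of neighbours in the order of the 4 groups overlapped.

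IER3, a stress-inducible regulator of cell survival, had the largest rise of the 9 genes after knockdown. Its log2 value (cluster 8178435) was 10.73, 10.71 and 10.77 with ERβ2 siRNA, against 10.18, 10.26 and 10.13 with control siRNA. The groups did not overlap, as in 21.1% of all genes in this direction. The rise was 0.55 (SE 0.06, 95% CI 0.41 to 0.68, adjusted p = 0.000254 from limma), or 1.46-fold. The other IER3 clusters, 8124848 and 8179704, hold identical values on every array, so they are not separate readings, and gave a rise of 0.62, or 1.53-fold, past the fold cut-off.

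With the ERβ2 plasmid IER3 read 11.46, 11.56 and 11.49, against 11.3, 11.12 and 11.22 with EV. The ERβ2 arrays lay above the EV arrays throughout, by 0.29 (SE 0.06, 95% CI 0.14 to 0.44), without passing the test (adjusted p = 0.449 from limma). The knockdown effect exceeded this difference by 0.26 (SE 0.08, adjusted p = 0.0464 from limma), and this difference did not pass without control siRNA replicate 3 (adjusted p = 0.105), ERβ2 siRNA replicate 3 (0.103), EV replicate 1 (0.104) or ERβ2 plasmid replicate 1 (0.104). Among the 9 genes EGR1 and IER3 were those whose effects differed between knockdown and overexpression, 1 lower and 1 higher, where 11.3% and 15% of all genes did. EV exceeded control siRNA by 1.02 (SE 0.07, adjusted p = 1.68e-05 from limma). The 4 groups formed a ladder of ERβ2 plasmid, EV, ERβ2 siRNA and control siRNA without overlap. In KLF10 and MYC too the groups ran in this order without overlap. How many of all genes showed this order was not counted. IER3 correlated over the arrays with KLF10 at 0.952 and with MYC at 0.972.

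IER2, a nuclear protein of the immediate early response, showed the same ladder with more spread. It read 8.27, 7.92 and 8.06 with ERβ2 siRNA (cluster 8026163), against 7.96, 7.68 and 7.65 with control siRNA. Control replicate 1 lay above ERβ2 siRNA replicate 2, and the arrays with number 1 were the highest of both groups. The rise of 0.32 (SE 0.11, adjusted p = 0.0618 from limma) was lost without any of control siRNA replicates 2 and 3 and ERβ2 siRNA replicates 1 and 3 (adjusted p from 0.118 to 0.177), and by the methods' t-test (0.208). The plasmid values were 8.59, 8.44 and 8.52 with ERβ2, against 8.31, 8.44 and 8.25 with EV, a difference of 0.18 that touched at 8.44 (SE 0.07, adjusted p = 0.675). The lowest EV array, at 8.25, also lay below the highest ERβ2 siRNA array, at 8.27, so all neighbours in the order of the 4 groups overlapped.

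IER5, which acts on the heat shock factor HSF1, was the flattest member. Its group means spanned 0.13 on the log2 scale, against 2.56 for EGR1. The values were 7.04, 6.89 and 6.92 with ERβ2 siRNA, against 7.1, 6.95 and 7.01 with control siRNA (cluster 7907904), a change of −0.07 (SE 0.07, adjusted p = 0.471 from limma). The plasmid arrays read 7.12, 7.01 and 7.12 with ERβ2, against 7, 7.03 and 6.96 with EV (difference 0.09, SE 0.06, adjusted p = 0.814). All groups overlapped, and the intervals allow a knockdown change from −0.22 to 0.08.

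The 3 KLF genes were all higher on the plasmid arrays than on the siRNA arrays, and their means were higher with ERβ2 siRNA than with control siRNA and with the ERβ2 plasmid than with EV, by 0.11 to 0.29. KLF10, a factor first known as an early gene induced by TGF-β, read 8.94, 8.87 and 8.89 with ERβ2 siRNA (cluster 8152215), against 8.78, 8.62 and 8.74 with control siRNA. The arrays did not overlap, and the rise was 0.19 (SE 0.06, adjusted p = 0.0549 from limma), lost when control siRNA replicate 2 (0.160), ERβ2 siRNA replicate 1 (0.145) or ERβ2 siRNA replicate 3 (0.123) was left out. With the ERβ2 plasmid it read 10, 10.01 and 9.9, against 9.68, 9.69 and 9.67 with EV. Its difference of 0.29 (SE 0.05, 95% CI 0.16 to 0.42, adjusted p = 0.418) had the smallest unadjusted p of the 9 genes in this comparison, 0.000689.

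KLF4, known as a reprogramming factor, differed most between the transfection types after EGR1. It read 7.67, 7.37 and 7.51 with ERβ2 siRNA (cluster 8163002), against 7.42, 7.33 and 7.43 with control siRNA, a change of 0.12 that did not pass and whose arrays overlapped (SE 0.08, adjusted p = 0.294 from limma). The ERβ2 plasmid arrays read 8.77, 8.72 and 8.88, against 8.6, 8.67 and 8.53 with EV, a difference of 0.19 without overlap (SE 0.07, adjusted p = 0.607). EV lay above control siRNA by 1.21 (SE 0.07, adjusted p = 3.66e-06), or 2.31-fold.

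KLF6, a family member studied as a tumor suppressor, read 8.84, 8.64 and 8.74 with ERβ2 siRNA (cluster 7931810), against 8.51, 8.55 and 8.49 with control siRNA. The arrays did not overlap. The rise of 0.22 (SE 0.07, adjusted p = 0.0344 from limma) was lost without ERβ2 siRNA replicate 1 (0.105). In the overexpression comparison it read 9.42, 9.25 and 9.35 with ERβ2, against 9.14, 9.32 and 9.23 with EV, which overlapped (difference 0.11, SE 0.07, adjusted p = 0.810). EV exceeded control siRNA by 0.71 (SE 0.07, adjusted p = 9.62e-05).

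MYC, the growth factor-responsive partner of MAX, had the smallest knockdown change among the 7 genes that passed. It read 11.14, 11.17 and 11.16 with ERβ2 siRNA (cluster 8148317), against 11.05, 11.01 and 11 with control siRNA. The groups did not overlap, and the rise of 0.14 (SE 0.05, 95% CI 0.02 to 0.25, adjusted p = 0.0839 from limma) was lost without control siRNA replicate 2 (0.173) or 3 (0.189) or any 1 of the ERβ2 siRNA arrays (0.136 to 0.195). In the plasmid groups MYC read 11.66, 11.63 and 11.6 with ERβ2, against 11.45, 11.44 and 11.45 with EV. The ERβ2 arrays lay above EV without overlap, by 0.18 (SE 0.05, 95% CI 0.07 to 0.30, adjusted p = 0.546), and the knockdown effect minus this effect was −0.05 (SE 0.06, 95% CI −0.18 to 0.09). EV lay above control siRNA by 0.43 (SE 0.06, adjusted p = 0.000631).

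**Figure D3:**
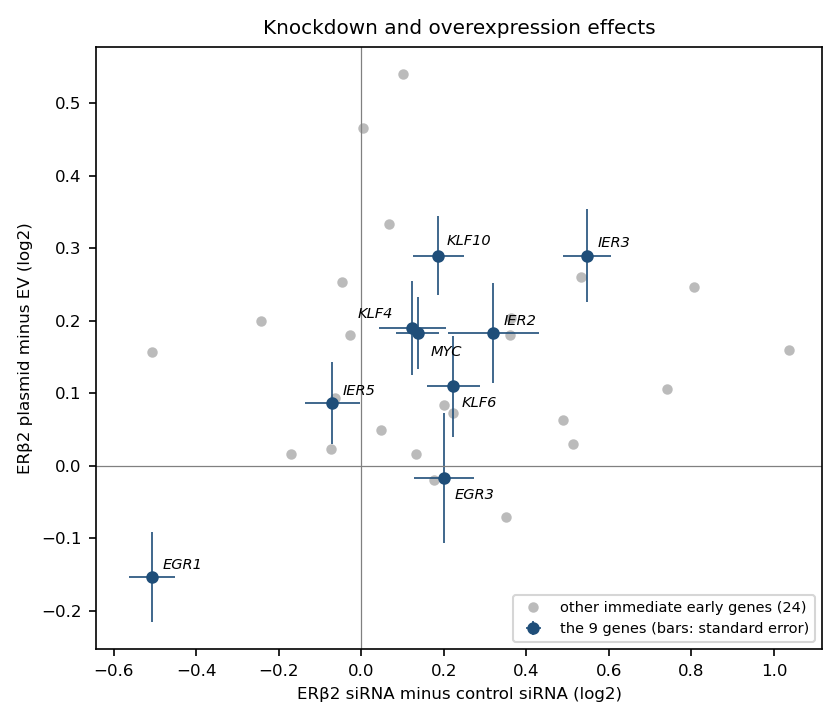
ERβ2 siRNA minus control siRNA (horizontal) against ERβ2 plasmid minus EV (vertical), both differences of log2 means, for the 9 genes (blue, bars are standard errors) and 24 other immediate early genes (grey). Most of the 9 genes lie at the upper right, at up to 0.55 and 0.29, and EGR1 at the lower left.

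The members' means lay mostly on the same side of the control in both ERβ2 comparisons. In 7 of the 9 genes both differences had the same sign, as in 46.3% of all genes, and in 6 of them both were above 0, as in 18.2% of all genes. In IER3, KLF10 and MYC every ERβ2 siRNA array lay above every control siRNA array and every ERβ2 plasmid array above every EV array, which held for 1.22% of all genes. The comparisons share no arrays. The overexpression differences did not pass the test, so these counts describe the arrays.

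Other immediate early genes were set beside the members. Of 24 measured genes of this list, 12 rose and 3 fell after knockdown, where 18.3% of all genes rose and 17.5% fell. The median was 0.16, against −0.03 over all genes. NR4A3, an orphan nuclear receptor, read 8.3, 8.27 and 8.27 with ERβ2 siRNA, against 7.31, 7.3 and 7.12 with control siRNA, a rise of 1.04 (SE 0.07, adjusted p = 2.31e-05 from limma). Its relative NR4A2 rose by 0.81 (SE 0.05), and CSRNP1, a nuclear protein, by 0.74 (SE 0.06), both well beyond the spread of their arrays. With the ERβ2 plasmid 0 of the 24 genes passed (limma), and 8 had an unadjusted p under 0.05, where 7.02% of all genes had one. Of the 24 differences 22 were above 0, where 46.9% of all genes were, with a median of 0.13. Between EV and control siRNA 17 were higher and 2 lower, where 19.2% of all genes were higher and 22.4% lower. The list's median was 0.43. CSRNP1 was among the 17, at 0.81 (SE 0.07), whereas NR4A2 differed by 0.10 (SE 0.07, adjusted p = 0.302 from limma).

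**Figure D4:**
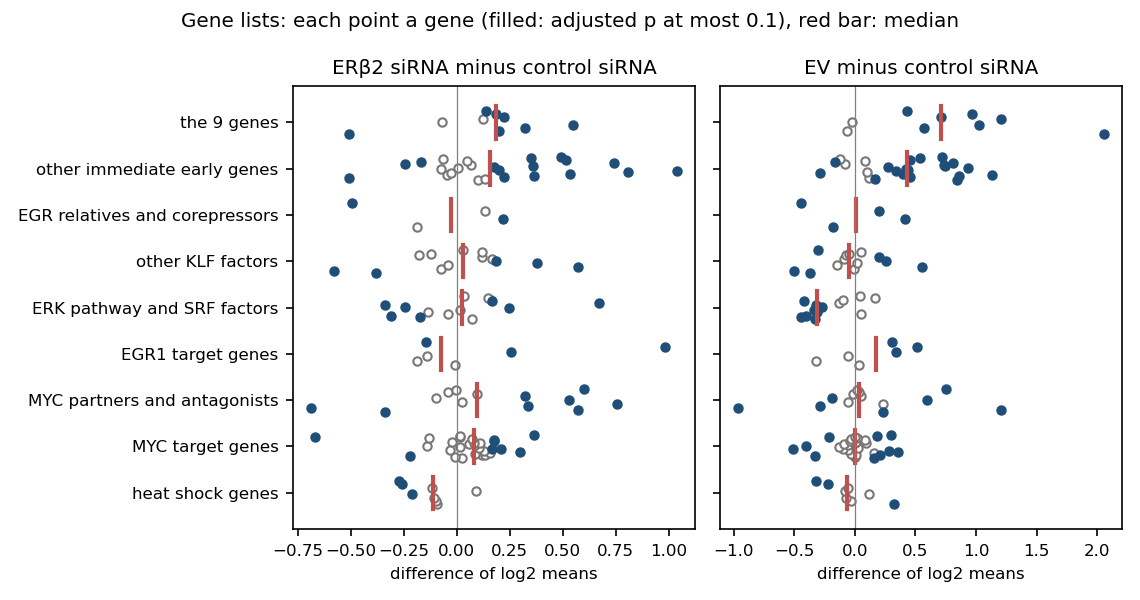
Difference of log2 means of every measured gene in 9 lists (points), as ERβ2 siRNA minus control siRNA (left) and EV minus control siRNA (right), each on its own horizontal scale. Filled points passed the limma test and the red bar is the list's median. The 9 genes and the other immediate early genes have the medians furthest above 0 on the right, 0.71 and 0.43. The interferon-stimulated genes are left out, since their median of 5.71 on the right would compress the scale.

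Relatives and regulators of the members moved in both directions, as genes at large did, with 18.3% rising and 17.5% falling after knockdown. Of 13 other KLF factors 3 rose and 2 fell after knockdown (median 0.03, against −0.03 over all genes). KLF7 rose by 0.57 (SE 0.06) and KLF2, a flow-responsive factor of endothelial cells, fell by 0.58 (SE 0.08), with values of 6.79, 7.07 and 6.98 with ERβ2 siRNA, against 7.45, 7.52 and 7.61 with control siRNA. KLF1, the erythroid member, fell by 0.38 (SE 0.11, adjusted p = 0.0316 from limma). It read low, at 5.15, 5.22 and 5.27 with ERβ2 siRNA, against 5.4, 5.53 and 5.86 with control siRNA. The array medians ran from 5.04 to 5.14. Of EGR4, the EGR corepressors NAB1 and NAB2 and the related zinc finger gene WT1, NAB1 rose by 0.22 (SE 0.07, adjusted p = 0.0627), WT1 fell by 0.50 (SE 0.08, adjusted p = 0.00184) and the other two did not pass.

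Of 14 measured genes of the ERK pathway and SRF factors, 3 rose and 4 fell after knockdown. Over all genes 18.3% rose and 17.5% fell. RPS6KA2, a kinase activated by ERK, rose by 0.67 (SE 0.06), while its relative RPS6KA1 fell by 0.34 (SE 0.07) and the ETS factor ELK3 fell by 0.31 (SE 0.06). Between EV and control siRNA 9 of the 14 were lower, where 22.4% of all genes were lower, and 5 did not pass. The median was −0.32, against −0.06 over all genes, whereas 7 of the 9 members were higher there. Of 6 genes described as EGR1 targets, 2 rose and 1 fell after knockdown. ICAM1, an adhesion molecule, rose by 0.98 (SE 0.06, adjusted p = 2.13e-05 from limma) and TGFB1 by 0.25 (SE 0.06). PLAU, the urokinase gene, fell by 0.15 (SE 0.05, adjusted p = 0.0749), so the list held changes in both directions after knockdown. Between EV and control siRNA 3 of the 6 were higher and 0 lower, where 19.2% of all genes were higher and 22.4% lower.

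Around MYC, 6 of 13 partners and antagonists rose and 2 fell after knockdown, where 18.3% of all genes rose and 17.5% fell. MXI1, which competes with MYC for MAX, rose by 0.76 (SE 0.10), MXD3, of the same antagonist family, fell by 0.69 (SE 0.07) and MYCBP2, a ubiquitin ligase that binds MYC, rose by 0.60 (SE 0.07). Of 28 MYC target genes, most of them genes of ribosome production, 6 rose, 2 fell and 20 did not pass (median 0.08). IPO4, an importin, fell by 0.67 (SE 0.05), and UTP20 and RRP12, both of ribosome assembly, rose by 0.36 (SE 0.06) and 0.30 (SE 0.06). Of 13 interferon-stimulated genes 1 rose (ISG15, by 0.50, SE 0.08) and 2 fell after knockdown (IFI6 by 0.36, SE 0.09, and OAS2 by 0.22, SE 0.08). OAS2 read low on the siRNA arrays, between 4.99 and 5.41, and its groups overlapped there. Of 8 heat shock genes 3 fell after knockdown (HSPA4L by 0.27, BAG3 by 0.26 and DNAJB1 by 0.21).

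Likeness to EGR1 and MYC was measured over the 12 arrays, where the pair correlated with each other at 0.881. The genes most like EGR1 by Pearson's r were the chemokine CCL5 (0.996), the ETS factor ETV7 (0.995) and MAL2, a membrane traffic protein (0.995). The genes most like MYC were DDIT3, a stress factor that is also called CHOP (0.993), the chemokine CXCL2 (0.992) and KLF10 (0.990). KLF4 correlated with both EGR1 (0.955) and MYC (0.962), and KLF10 with EGR1 (0.927) and KLF4 (0.986). EGR1 and EGR3 correlated at −0.652, but the group means of EGR3 spanned only 0.28 on the log2 scale and its neighbouring groups overlapped. These values describe 4 groups of 3 arrays, and 802 genes correlated with EGR1 above 0.9 and 653 with MYC, 4.47% and 3.64% of all genes.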

How the data were processed

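Total RNA of 12 BT549 samples was hybridized to Affymetrix Human Gene ST arrays. The deposited values are log2 values, made by the authors with the RMA method of Expression Console, which corrects background, normalizes the arrays to each other and gives 1 value for each transcript cluster. The software version and the base of the logarithm are not given in the sources used here, and base 2, which RMA gives, was assumed. The 3 arrays per group limit the precision. Of 33297 clusters, 19181 had 1 symbol, and 895 genes with several clusters were reduced to the one with the highest mean. Comparisons were made with limma 3.58.1 in R 4.3.3, within 6 arrays each, and over 12 arrays for the difference of effects. The study's t-test was kept as an alternative. The procedure was also run on simulated data with independent noise and few changed genes. In the knockdown 35.8% of all genes passed, so that run does not check this setting. Alternatives covered the rows used, a filter on dim genes (mean log2 under 5), 3 normalizations, the test, the fit, the replicate block and leaving out each array. From each other gene list up to 3 genes with the largest knockdown change among those that passed were named, and for EGR1 and MYC the 3 genes of highest correlation. The members and lists were chosen with earlier results of these data known. Start sites came from RefSeq, GRCh38.p14.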

Additional observations from a re-analysis of the deposited data

How the results depend on the processing

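EGR1 and IER3 (knockdown) and the 7 genes higher with EV than with control siRNA kept their direction and their side of the threshold in all 16 alternative settings, and the EGR1 difference of effects did so in all 20. The 6 members higher after knockdown became 2 with all transcript clusters and 1 to 5 when single arrays were left out. In the knockdown 1 member was called with the cluster of highest variance and 1 when arrays were centred on their median (IER3 in each), against 0. With the ERβ2 plasmid 3 members passed with an intensity trend and a robust prior, against 0. When arrays were quantile normalized again, IER5 passed as 1 member lower with EV than with control siRNA (−0.14), and the members lower in the difference of effects became 2, as they did after cyclic loess. The 1 member higher in that difference became 0 to 1 when single arrays were left out. Signs turned only in changes that did not pass. EGR3 with the ERβ2 plasmid stood at 0.010 when quantile normalized again, 0.0090 after cyclic loess and 0.0067 when median centred, and between −0.082 and 0.065 with single arrays left out. IER5 between EV and control siRNA ran from −0.058 to 0.017 and the KLF4 difference of effects from −0.14 to 0.0067 with single arrays left out. Over all genes, 3150 fell after knockdown, and 1968 when arrays were centred on their median, with 51% and 67.2% of the genes that passed being higher. The main tests did not pair samples by replicate number. For knockdown, deviations of same-numbered arrays correlated at 0.01 to 0.22, and those of differently numbered arrays at −0.19 to 0.06. For the plasmids the ranges were −0.14 to 0.10 and −0.13 to 0.19. Whether the numbers mark pairs is not settled by these values. With the replicate block 4 members rose and 1 fell after knockdown, 0 passed with the ERβ2 plasmid, 7 were higher with EV than with control siRNA, and 1 was higher and 1 lower in the difference of effects. The cause of these shifts was not tested.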
